A study of Mus musculus with 12 samples.

Results

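The 10 genes described here encode the class I route of antigen presentation: the classical heavy chains H2-K1 and H2-D1, their light chain B2m, the peptide transporter subunits Tap1 and Tap2, the loading chaperone Tapbp (tapasin), the immunoproteasome subunits Psmb8, Psmb9 and Psmb10, and Nlrc5, a regulator of class I transcription. They were chosen by name from the 26121 genes of the deposited table, and all 10 were among the 14180 genes with at least 1 CPM (reads scaled to a common library size) in at least 3 libraries. RNA had been sequenced from dendritic cells of 2 kinds, CD11b+ and CD103+, taken by sorting from kidneys of 6 male wild-type mice that were 8 to 12 weeks old. CD11b+ inflamed and CD103+ inflamed cells came from 3 mice studied 7 days after nephrotoxic antiserum had been given by injection, a model of immune-mediated glomerulonephritis. CD11b+ healthy and CD103+ healthy cells came from 3 mice that received none. The sources used here name no strain, and the sort gates beyond the surface names are not given in them.

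In this route the proteasome cuts proteins of the cytosol into peptides, TAP carries the peptides into the endoplasmic reticulum, tapasin holds the empty class I molecule beside TAP, and the loaded molecule goes to the cell surface, where CD8+ T cells read it. Interferon-gamma is known to induce nearly all of these genes, and under it the immunoproteasome subunits take the places of Psmb5, Psmb6 and Psmb7 in newly built proteasomes. CD103+ dendritic cells (cDC1) are known for presenting material taken up from other cells on class I molecules, and CD11b+ dendritic cells (cDC2) are known mainly for presentation on class II molecules.

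The sorted cells carried the markers of their labels. The 5 cDC1 markers (Itgae, which encodes CD103, Xcr1, Clec9a, Irf8 and Batf3) summed to 2629 to 3297 CPM in CD103+ inflamed and 549 to 1318 CPM in CD103+ healthy libraries, against 55.9 to 62.8 CPM in CD11b+ inflamed and 90.2 to 108 CPM in CD11b+ healthy libraries. The 5 cDC2 markers (Itgam, Sirpa, Irf4, Cd209a and Clec10a) summed to 1014 to 1171 CPM in CD11b+ inflamed and 1123 to 1249 CPM in CD11b+ healthy libraries. In CD103+ libraries they summed to 29.4 to 37.0 CPM (inflamed) and 21.6 to 31.4 CPM (healthy). CD11b+ libraries also held 8 macrophage markers, at 1148 to 1402 CPM in inflamed and 402 to 483 CPM in healthy libraries. The groups also differed in RNA of other cells. The 15 kidney tubule markers, none of which was at 0 in all 3 libraries of a group, took 0.490% of the CPM in CD11b+ inflamed, 0.402% in CD103+ inflamed, 1.27% in CD11b+ healthy and 4.57% in CD103+ healthy cells, and 20 pan-leukocyte genes took 1.79%, 1.69%, 1.28% and 0.510% in that order of groups. The gene of the leukocyte antigen CD45, Ptprc, averaged 1590 ± 113, 1254 ± 58.4, 964 ± 166 and 324 ± 156 CPM (SD, n = 3 each). CD103+ healthy replicate 2 stood apart, with 177 CPM of Ptprc. There were 307 CPM in CD103+ healthy replicate 1 and 488 CPM in CD103+ healthy replicate 3. Each gene is therefore given as deposited (log2 CPM, and CPM computed from the recovered reads) and relative to Ptprc (its log2 value minus that of Ptprc in the same library). In bulk RNA of sorted cells, fewer cells of a type and less RNA per cell cannot be told apart. Libraries held 11486182 to 26556814 reads assigned to genes, at which 3 reads are 0.112 to 0.254 CPM.

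The plot of the deposited values by library shows that the 10 genes did not all follow the same pattern. As deposited, 8 genes rose in CD103+ cells in nephritis, where 34.6% of all genes tested rose. In CD11b+ cells Psmb10 and Nlrc5 rose and H2-D1 and Tap2 fell, where 20.1% of all genes rose and 15.8% fell. In inflamed kidneys Tap1, Tap2, Tapbp, Psmb8 and Psmb9 were lower in CD11b+ than in CD103+ cells, and H2-K1 was higher. There 8.21% of all genes were lower and 9.66% higher. Relative to Ptprc, 0 of the 10 genes rose in CD103+ cells and 8 fell, where 0.959% of all genes rose and 81% fell. The sum of the 10 genes was 0.606% of the CPM in CD11b+ inflamed, 0.535% in CD103+ inflamed, 0.581% in CD11b+ healthy and 0.267% in CD103+ healthy cells. Per kilobase of exon, B2m was the most abundant of the 10 in every group, with 2248 ± 257, 1778 ± 156, 1646 ± 183 and 744 ± 177 CPM per kilobase in that order (SD, n = 3 each). H2-K1 came next and H2-D1 after it in both inflamed groups, at 870 and 333 CPM per kilobase in CD11b+ inflamed and 549 and 335 in CD103+ inflamed cells. In the healthy groups H2-D1 came next and H2-K1 after it, at 729 and 621 in CD11b+ healthy and 290 and 227 in CD103+ healthy cells, where the ranges of these neighbours overlapped in CD103+ healthy and not in CD11b+ healthy cells. Tapbp had rank 4 in every group, at 72.4, 120.1, 89.8 and 74.4 CPM per kilobase, and Tap2 and Nlrc5 took the last places, at 3.40 to 9.67 CPM per kilobase.

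**Figure D1:**
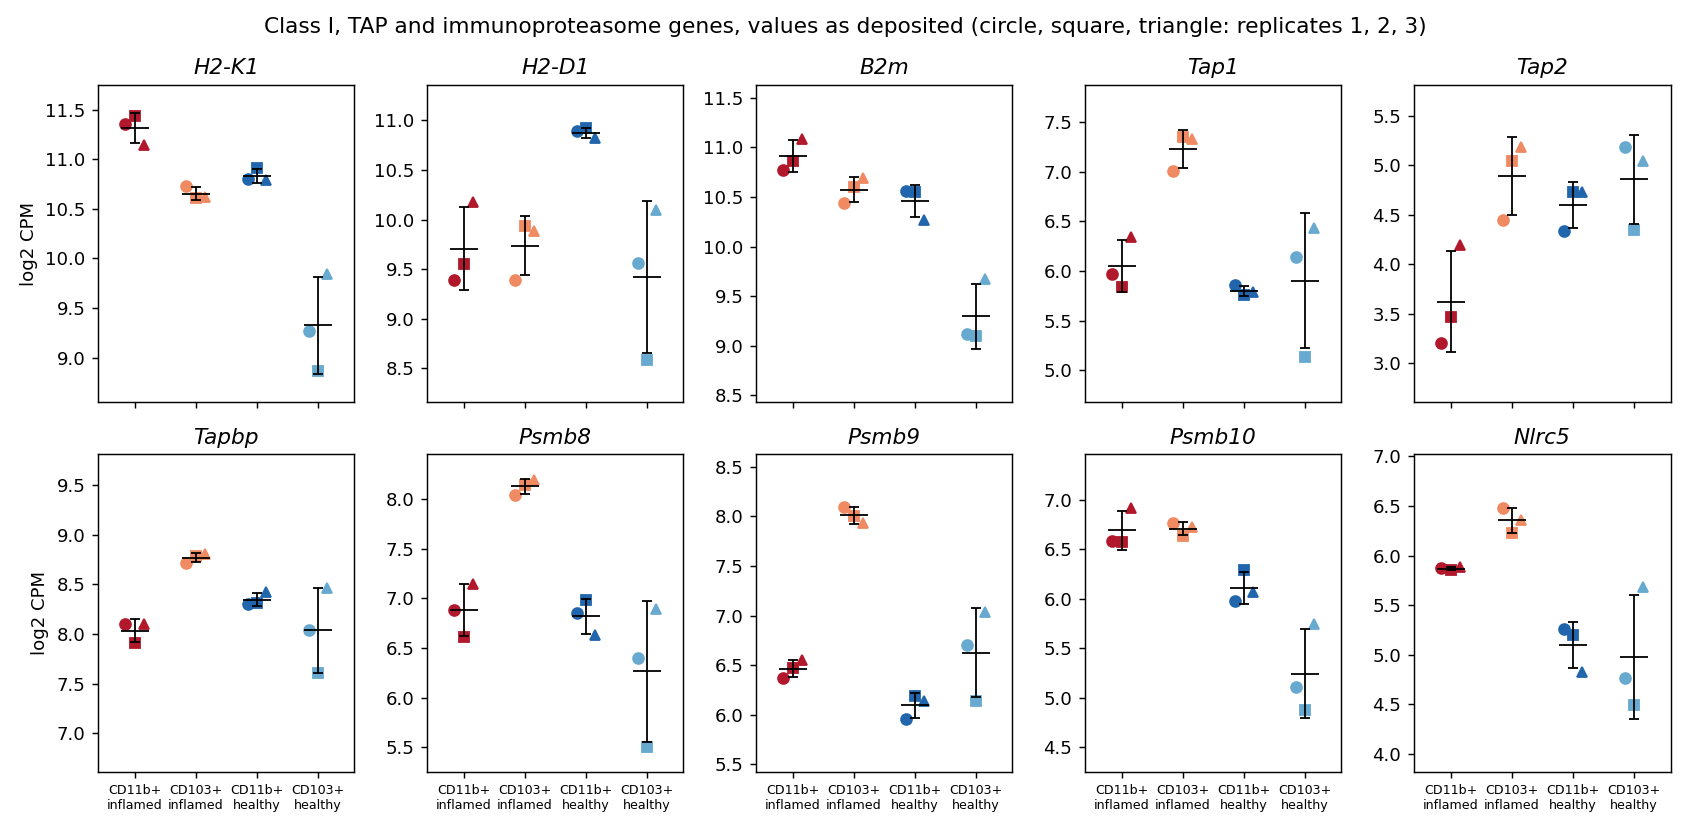
Deposited log2 CPM of each of the 10 genes (vertical axes, a separate range for each gene) in the 12 libraries by group, where points are libraries and black bars are the mean ± SD of 3. Psmb8 and Psmb9 stood highest in the 3 CD103+ inflamed libraries, at 8.05 to 8.20 and 7.93 to 8.10, while H2-D1 stood highest in the 3 CD11b+ healthy libraries, at 10.82 to 10.92.

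The class I molecule itself was followed through its heavy chains and B2m. H2-K1, a classical heavy chain that presents peptides to CD8+ T cells (chr17:33996017-34000347, minus strand, GRCm38), had 1699, 1563 and 1575 CPM in CD103+ inflamed libraries, against 617, 467 and 916 CPM in CD103+ healthy libraries. In CD11b+ cells it had 2626, 2772 and 2269 CPM in inflamed libraries, against 1781, 1925 and 1768 CPM in healthy libraries. Inflamed libraries were above healthy ones without overlap in both kinds of cell. B2m (chr2:122147686-122153083, plus strand) had 1385, 1554 and 1650 CPM in CD103+ inflamed libraries, against 554, 550 and 815 CPM in CD103+ healthy libraries. Its CD11b+ values were 1754, 1866 and 2180 CPM in inflamed libraries, against 1507, 1504 and 1234 CPM in healthy libraries, again without overlap. Of all genes tested, 37.6% were above and 30.9% below without overlap in CD103+ cells in nephritis, and 28.2% and 22.9% in CD11b+ cells.

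H2-K1 rose 2.51-fold in CD103+ cells in nephritis (log2 difference 1.33 ± 0.19 SE, limma adjusted p = 5.09e-05) and B2m rose 2.43-fold (1.28 ± 0.17, limma adjusted p = 2.07e-05). In CD11b+ cells the log2 difference was 0.48 ± 0.19 for H2-K1 (limma adjusted p = 0.0681) and 0.45 ± 0.17 for B2m (limma adjusted p = 0.0517), and neither passed. Without CD103+ healthy replicate 2 or without CD103+ healthy replicate 3, which enter this test only through the shared estimate of the spread, both passed at the same differences.

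H2-D1, the other classical heavy chain (chr17:35262730-35267499, plus strand), took a different course. It had 671, 750 and 1159 CPM in CD11b+ inflamed libraries, against 1900, 1937 and 1807 CPM in CD11b+ healthy libraries. Every inflamed CD11b+ library was below every healthy one, and H2-D1 fell by 1.17 ± 0.31 on the log2 scale (SE, limma adjusted p = 0.00987). In CD103+ cells H2-D1 had 671, 977 and 947 CPM in inflamed libraries, against 758, 385 and 1098 CPM in healthy libraries, which overlapped (log2 difference 0.32 ± 0.31, limma adjusted p = 0.385; -0.10 without CD103+ healthy replicate 2).

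Because a difference between 2 genes of a library does not depend on how the library was scaled, the heavy chains were also set against B2m within each library. Such a difference can still vary with RNA of other cells, whose part was not tested. H2-D1 minus B2m averaged -1.20 ± 0.26 in CD11b+ inflamed, -0.84 ± 0.19 in CD103+ inflamed, 0.42 ± 0.12 in CD11b+ healthy and 0.12 ± 0.55 in CD103+ healthy cells (log2, SD, n = 3 each). Relative to B2m, H2-D1 fell in nephritis by 1.62 ± 0.24 in CD11b+ cells (SE, limma adjusted p = 0.000168) and by 0.96 ± 0.24 in CD103+ cells (limma adjusted p = 0.00211). H2-K1 minus B2m averaged 0.40 ± 0.30, 0.08 ± 0.19, 0.37 ± 0.14 and 0.03 ± 0.23 in the same order, and its differences between inflamed and healthy were 0.03 ± 0.19 in CD11b+ and 0.05 ± 0.19 in CD103+ cells, neither of which passed (limma adjusted p = 0.917 and 0.832). The heavy chains set directly against each other, a pair added after the values were seen, gave a fall of H2-D1 relative to H2-K1 of 1.65 ± 0.25 in CD11b+ cells (limma adjusted p = 0.000394) and of 1.01 ± 0.25 in CD103+ cells (limma adjusted p = 0.00273). The 2 heavy chain genes share sequence: of the 50-base windows of the annotated transcripts, 9.63% for H2-K1 and 12.8% for H2-D1 also occur in transcripts of other genes, 4.08% and 5.44% in each other's. The sources used here do not say how the authors counted reads that fit several genes.

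The stretches before the starts of these 3 genes are shown because the heavy chains moved apart and because NLRC5 is known to act through the X and Y boxes of class I promoters. They are RefSeq sequence of GRCm38.p6, the 200 bases before the start on the gene's strand: chr17:34000348-34000547 (minus) for H2-K1, chr17:35262894-35263093 (plus) for H2-D1 and chr2:122147487-122147686 (plus) for B2m. Capitals mark matches to 3 motifs. The core of the X2 box is TGACGC. The core of the Y box is CCAAT, or ATTGG when it is read from the opposite strand of the gene. A motif like the interferon response element is GAAANNGAA.
H2-K1: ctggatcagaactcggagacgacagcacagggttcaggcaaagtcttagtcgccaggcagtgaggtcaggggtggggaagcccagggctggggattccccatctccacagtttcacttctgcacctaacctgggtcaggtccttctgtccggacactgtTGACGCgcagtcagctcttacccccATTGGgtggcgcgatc
H2-D1: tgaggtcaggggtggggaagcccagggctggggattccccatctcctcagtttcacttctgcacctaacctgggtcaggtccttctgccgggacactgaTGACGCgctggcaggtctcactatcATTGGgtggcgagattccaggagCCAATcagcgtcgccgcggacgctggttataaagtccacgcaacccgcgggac
B2m: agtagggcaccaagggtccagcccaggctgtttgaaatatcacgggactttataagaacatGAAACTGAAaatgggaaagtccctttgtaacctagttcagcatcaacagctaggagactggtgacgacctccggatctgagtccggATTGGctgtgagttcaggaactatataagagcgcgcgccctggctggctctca
The H2-K1 and H2-D1 stretches share an identical run of 46 bases. Both hold the X2 core followed, after a gap of 19 bases, by the Y core. The X2 core begins 41 bases before the RefSeq start of H2-K1 used here (chr17:34000347) and 101 bases before that of H2-D1 (chr17:35263094). From a second RefSeq start of H2-K1 (chr17:34000333) it begins 55 bases before, so these distances depend on the start chosen. The B2m stretch holds no match to TGACGC but has GAAANNGAA 139 bases before the start and the Y core 53 bases before it. Only exact matches were counted, so a site of the same kind with other letters would be missed in any of the 3 stretches. Over the 32851 RefSeq promoter windows of 300 bases (250 before and 50 after a start), searched on both strands, the X2 core occurred in 7.40%, the Y core in 37.4% and the interferon-like motif in 8.56%. Of the 8 genes here with such a window, these motifs were in the windows of 2, 6 and 1 genes in that order. TGACGTCA (a cAMP response element) was in 1.79% of all windows and in 0 of the 8, and TTCNNNGAA (a gamma-activated site) was in 8.30% and, of the 8, in that of Psmb8.

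The transporter subunits also moved apart. Tap1 (chr17:34187553-34197225, plus strand) had 129, 163 and 161 CPM in CD103+ inflamed libraries, against 70.5, 35.1 and 86.2 CPM in CD103+ healthy libraries. In CD11b+ cells it had 62.7, 57.3 and 80.9 CPM in inflamed libraries, against 58.0, 54.1 and 55.2 CPM in healthy libraries. Tap1 was thus highest in CD103+ inflamed libraries, with no overlap with any other group. It rose 2.51-fold in CD103+ cells in nephritis (log2 difference 1.33 ± 0.26 SE, limma adjusted p = 0.00051; 0.95 without CD103+ healthy replicate 2), and its difference in CD11b+ cells, 0.25 ± 0.26, did not pass (limma adjusted p = 0.477).

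Tap2, the other subunit of the same transporter (chr17:34203527-34216321, plus strand), had 21.8, 33.0 and 36.4 CPM in CD103+ inflamed libraries, against 36.3, 20.3 and 32.9 CPM in CD103+ healthy libraries, which overlapped (log2 difference 0.04 ± 0.28, limma adjusted p = 0.916). In CD11b+ cells it had 9.20, 11.1 and 18.2 CPM in inflamed libraries, against 20.1, 26.6 and 26.5 CPM in healthy libraries. All 3 inflamed CD11b+ libraries were below the healthy ones, and Tap2 fell by 0.98 ± 0.28 on the log2 scale (SE, limma adjusted p = 0.0164). That call was lost without CD11b+ healthy replicate 2 (-0.91), CD11b+ inflamed replicate 1 (-0.77) or CD11b+ inflamed replicate 2 (-0.90). Within libraries Tap1 minus Tap2 averaged 2.43 ± 0.31 in CD11b+ inflamed, 2.34 ± 0.21 in CD103+ inflamed, 1.20 ± 0.28 in CD11b+ healthy and 1.05 ± 0.31 in CD103+ healthy cells (log2, SD, n = 3 each). No inflamed library overlapped a healthy one. Tap1 rose relative to Tap2 by 1.22 ± 0.40 in CD11b+ cells (SE, limma adjusted p = 0.00641) and by 1.29 ± 0.40 in CD103+ cells (limma adjusted p = 0.00444). The difference between these responses, -0.07 ± 0.56, did not pass (limma adjusted p = 0.94).

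Tapbp (chr17:33915899-33929292, plus strand) had 421, 440 and 447 CPM in CD103+ inflamed libraries, against 263, 195 and 352 CPM in CD103+ healthy libraries. It had 274, 239 and 274 CPM in CD11b+ inflamed libraries, against 315, 318 and 344 CPM in CD11b+ healthy libraries. The inflamed libraries were all above the healthy ones in CD103+ cells and all below them in CD11b+ cells. Tapbp rose 1.66-fold in CD103+ cells (log2 difference 0.73 ± 0.17 SE, limma adjusted p = 0.00217), while its difference in CD11b+ cells, -0.31 ± 0.17, did not pass (limma adjusted p = 0.173). Exons of other annotated genes overlap 29.0% of the exon bases of Tapbp, 18.5% of Tap2 and 14.7% of Psmb8, and the sources used here do not say whether the counting used strand.

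Of the immunoproteasome subunits, all 3 rose in CD103+ cells in nephritis, and Psmb10 also rose in CD11b+ cells. Psmb8 (LMP7, the chymotrypsin-like subunit that replaces Psmb5; chr17:34197721-34201454, plus strand) had 265, 283 and 293 CPM in CD103+ inflamed libraries, against 84.6, 45.2 and 119 CPM in CD103+ healthy libraries. In CD11b+ cells it had 118, 98.0 and 142 CPM in inflamed libraries, against 115, 126 and 98.8 CPM in healthy libraries, which overlapped. Psmb8 rose 3.64-fold in CD103+ cells (log2 difference 1.86 ± 0.26 SE, limma adjusted p = 3.94e-05; 1.48 without CD103+ healthy replicate 2), and in CD11b+ cells the difference was 0.06 ± 0.26 (limma adjusted p = 0.875).

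Psmb9 (LMP2, which replaces Psmb6; chr17:34181987-34187764, minus strand) had 274, 256 and 244 CPM in CD103+ inflamed libraries, against 104, 70.6 and 132 CPM in CD103+ healthy libraries. In CD11b+ cells it had 82.9, 89.0 and 93.6 CPM in inflamed libraries, against 61.9, 72.9 and 70.7 CPM in healthy libraries. Inflamed libraries were above healthy ones in both kinds of cell. Psmb9 rose 2.61-fold in CD103+ cells (1.38 ± 0.18, limma adjusted p = 1.91e-05), and its difference of 0.37 ± 0.18 in CD11b+ cells did not pass (limma adjusted p = 0.125). At the same difference it passed without CD103+ healthy replicate 2 or 3 (limma adjusted p = 0.0261 and 0.0487). It also passed with only the groups compared (limma adjusted p = 0.0364).

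Psmb10 (MECL-1, which replaces Psmb7; chr8:105935735-105938444, minus strand) had 109, 99.3 and 105 CPM in CD103+ inflamed libraries, against 34.5, 29.4 and 53.5 CPM in CD103+ healthy libraries. Its CD11b+ values were 95.5, 95.4 and 120 CPM in inflamed libraries, against 62.8, 78.2 and 66.9 CPM in healthy libraries. Psmb10 rose in both, 2.76-fold in CD103+ cells (1.46 ± 0.19, limma adjusted p = 1.84e-05) and 1.49-fold in CD11b+ cells (0.58 ± 0.19, limma adjusted p = 0.0297). The call in CD11b+ cells was lost, at differences of 0.47 to 0.64, without CD11b+ healthy replicate 1 or 3 or without any of the 3 CD11b+ inflamed libraries.

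Each immunoproteasome subunit was set against the constitutive subunit whose place it takes. Psmb8 minus Psmb5 averaged 4.56 ± 0.13 in CD11b+ inflamed, 5.45 ± 0.12 in CD103+ inflamed, 3.60 ± 0.30 in CD11b+ healthy and 2.69 ± 0.81 in CD103+ healthy cells (log2, SD, n = 3 each), with every inflamed library above every healthy one. Psmb8 rose relative to Psmb5 by 0.97 ± 0.30 in CD11b+ cells (SE, limma adjusted p = 0.00569) and by 2.76 ± 0.30 in CD103+ cells (limma adjusted p = 7.41e-11). The noise of Psmb5 enters every gene of this fit, so these p-values can be too small for 3 libraries a group. Psmb5 was low, at 3.75 to 13.7 CPM, and itself fell in both kinds of cell, by 0.90 in each (limma adjusted p = 0.0117 in CD11b+ and 0.00601 in CD103+ cells).

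Psmb9 minus Psmb6 averaged -1.35 ± 0.04, 0.05 ± 0.11, -1.13 ± 0.12 and -0.93 ± 0.66 in the same order of groups. As reads, Psmb9 was 1.04 ± 0.08 times Psmb6 in CD103+ inflamed cells and 0.393 to 0.561 times on average in the other groups. The rise relative to Psmb6 was 0.98 ± 0.24 in CD103+ cells (limma adjusted p = 0.00371), while in CD11b+ cells the difference was -0.21 ± 0.24 (limma adjusted p = 0.5). Psmb10 minus Psmb7 averaged 0.99 ± 0.17, 0.29 ± 0.05, 0.35 ± 0.37 and -1.12 ± 0.52. It rose by 1.41 ± 0.24 in CD103+ cells (limma adjusted p = 0.000167), and in CD11b+ cells the difference of 0.65 ± 0.24 was close to the threshold (limma adjusted p = 0.0511). It passed under 8 alternatives, among them both other pseudocounts, the filter at 5 CPM and only the groups compared (0.62 to 0.83, limma adjusted p = 0.0165 to 0.0498). The plot of pairs within libraries shows these values.

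**Figure D2:**
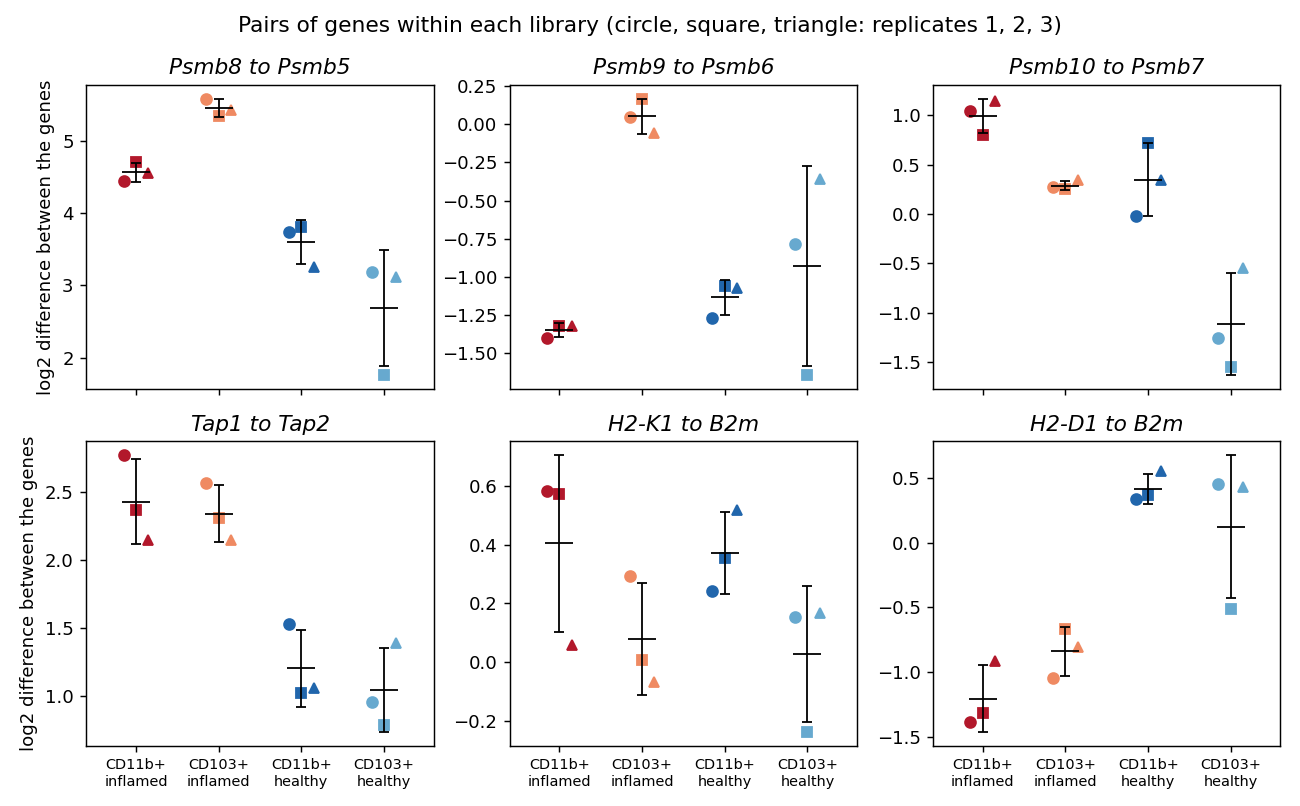
Log2 CPM of the first gene minus that of the second in the same library (vertical axes) for 6 pairs by group, where points are libraries and black bars are the mean ± SD of 3. Psmb8 minus Psmb5 and Tap1 minus Tap2 were higher, and H2-D1 minus B2m lower, in all 6 inflamed libraries than in all 6 healthy ones.

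Tap1 and Psmb9, which both rose in CD103+ cells, start on opposite strands with 225 bases between their RefSeq starts, a region shown because it lies before both genes. It is chr17:34187331-34187555 of GRCm38.p6 (RefSeq), printed on the plus strand from the side of Psmb9 to that of Tap1, with the CCAAT match in capitals.
Tap1 and Psmb9 shared region: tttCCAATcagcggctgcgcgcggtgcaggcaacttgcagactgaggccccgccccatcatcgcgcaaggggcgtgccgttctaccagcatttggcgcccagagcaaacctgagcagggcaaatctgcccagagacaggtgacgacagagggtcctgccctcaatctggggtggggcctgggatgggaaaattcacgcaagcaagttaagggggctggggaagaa
Its CCAAT begins 222 bases before the start of Tap1, and the same bases are the Y box core match 8 bases before the start of Psmb9. TGACGC, TGACGTCA, GAAANNGAA and TTCNNNGAA had no match in these letters. Exons of the 2 genes overlap as annotated, over 3.87% of the exon bases of Tap1 and 5.79% of those of Psmb9.

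Nlrc5, the regulator that raises transcription of class I and related genes (chr8:94434356-94527272, plus strand), had 89.3, 74.9 and 82.2 CPM in CD103+ inflamed libraries, against 27.1, 22.5 and 51.3 CPM in CD103+ healthy libraries. In CD11b+ cells it had 58.5, 57.8 and 59.0 CPM in inflamed libraries, against 38.4, 36.7 and 28.4 CPM in healthy libraries. Inflamed libraries were above healthy ones without overlap in both. Nlrc5 rose 2.60-fold in CD103+ cells (1.38 ± 0.24, limma adjusted p = 0.000193) and 1.71-fold in CD11b+ cells (0.77 ± 0.24, limma adjusted p = 0.0209). The call in CD11b+ cells was lost without CD11b+ healthy replicate 3 (0.64) or without any of the 3 CD11b+ inflamed libraries (0.77 to 0.78).

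Counted together as deposited, 8 of the 10 genes rose and 0 fell in CD103+ cells in nephritis, in a comparison in which 34.6% of all genes tested rose and 27.8% fell. The median of the 10 genes was 1.33 and that of all genes 0.16 (log2 difference). Without CD103+ healthy replicate 2 the same 8 passed, with differences of 0.52 to 1.48. The tubule and leukocyte genes moved as well: all 15 tubule markers fell (summed 3757 to 4427 CPM in CD103+ inflamed, against 33991 to 54585 CPM in CD103+ healthy libraries). All 20 pan-leukocyte genes rose (16122 to 17687 CPM in CD103+ inflamed, against 3303 to 7055 CPM in CD103+ healthy libraries). T cell markers (6 of 7; 273 to 325 CPM in CD103+ inflamed, against 103 to 175 CPM in CD103+ healthy libraries) and NK cell markers (5 of 6; 131 to 153 CPM, against 38.8 to 60.4 CPM in the same order) rose too. The part of these genes in the rise of the 8 was not tested. In CD11b+ cells 2 of the 10 rose (Psmb10 and Nlrc5) and 2 fell (H2-D1 and Tap2), where 20.1% of all genes rose and 15.8% fell; medians were 0.31 for the 10 and 0.08 for all genes. There 9 of the 15 tubule markers fell (3815 to 6338 CPM in CD11b+ inflamed, against 7679 to 19764 CPM in CD11b+ healthy libraries), 8 of the 20 pan-leukocyte genes rose and 1 fell, and 7 of 8 macrophage markers rose (1148 to 1402 CPM, against 402 to 483 CPM in the same order). Markers of lymphocytes fell with H2-D1 and Tap2: 5 of 7 of T cells (316 to 397 CPM in CD11b+ inflamed, against 462 to 643 CPM in CD11b+ healthy libraries), 4 of 4 tested of B cells (44.4 to 60.8 CPM, against 127 to 212 CPM) and 3 of 6 of NK cells (131 to 157 CPM, against 286 to 310 CPM), of which 1 rose. Of the 5 cDC1 markers 3 fell and 1 rose (55.9 to 62.8 CPM, against 90.2 to 108 CPM). Their part in these changes was not tested.

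The plot of values relative to Ptprc shows the same libraries after the log2 value of Ptprc was subtracted, which moves every gene of a library by the same amount. Ptprc itself rose by 2.07 in CD103+ cells (log2 difference, limma adjusted p = 1.82e-05) and by 0.73 in CD11b+ cells (limma adjusted p = 0.0462). In CD103+ cells in nephritis 0 of the 10 genes rose and 8 fell relative to Ptprc, where 0.959% of all genes rose and 81% fell, so the count of members is near the share of all genes. The median was -0.74 for the 10 and -1.91 for all genes, so the 10 fell by less than the median gene. Because the subtraction moves all genes equally, the gap between these medians is that of the deposited values and not a separate result. H2-D1 (-1.75 ± 0.27 SE, limma adjusted p = 3.02e-05), Tap2 (-2.03 ± 0.38, limma adjusted p = 0.000181) and Tapbp (-1.34 ± 0.25, limma adjusted p = 0.000195) were the lowest. Psmb8 relative to Ptprc was -2.26, -2.20 and -2.02 in CD103+ inflamed libraries, against -1.86, -1.97 and -2.04 in CD103+ healthy libraries; it overlapped (-0.21 ± 0.26, limma adjusted p = 0.456), and Psmb10 did not pass either (-0.61 ± 0.28, limma adjusted p = 0.0577). With the mean of the 20 pan-leukocyte genes in place of Ptprc, 5 of the 10 fell and 0 rose (H2-K1, H2-D1, B2m, Tap2 and Tapbp), and with only the CD103+ groups in the fit 3 fell. Without CD103+ inflamed replicate 2 the count relative to Ptprc was 5.

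In CD11b+ cells H2-D1 relative to Ptprc was -1.30, -1.14 and -0.33 in inflamed libraries, against 0.78, 0.94 and 1.21 in healthy libraries. H2-D1 (-1.90 ± 0.27, limma adjusted p = 0.000226), Tap2 (-1.71 ± 0.38, limma adjusted p = 0.00484) and Tapbp (-1.05 ± 0.25, limma adjusted p = 0.00745) fell and 0 of the 10 rose, where 1.66% of all genes rose and 24.9% fell; medians were -0.42 for the 10 and -0.66 for all genes. The fall of Tapbp did not pass without CD11b+ healthy replicate 3 (-0.86) or CD11b+ inflamed replicate 2 (-0.95). H2-D1 and Tap2 also fell in CD11b+ cells as deposited. Ptprc itself rose in CD11b+ cells, so a gene that fell as deposited had to fall further relative to Ptprc. The falls on both scales are therefore not separate results. H2-D1 also fell relative to B2m. Nlrc5 relative to Ptprc had -4.82, -4.84 and -4.63 in CD11b+ inflamed libraries, against -4.84, -4.78 and -4.78 in CD11b+ healthy libraries and did not pass (0.04 ± 0.26, limma adjusted p = 0.92).

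**Figure D3:**
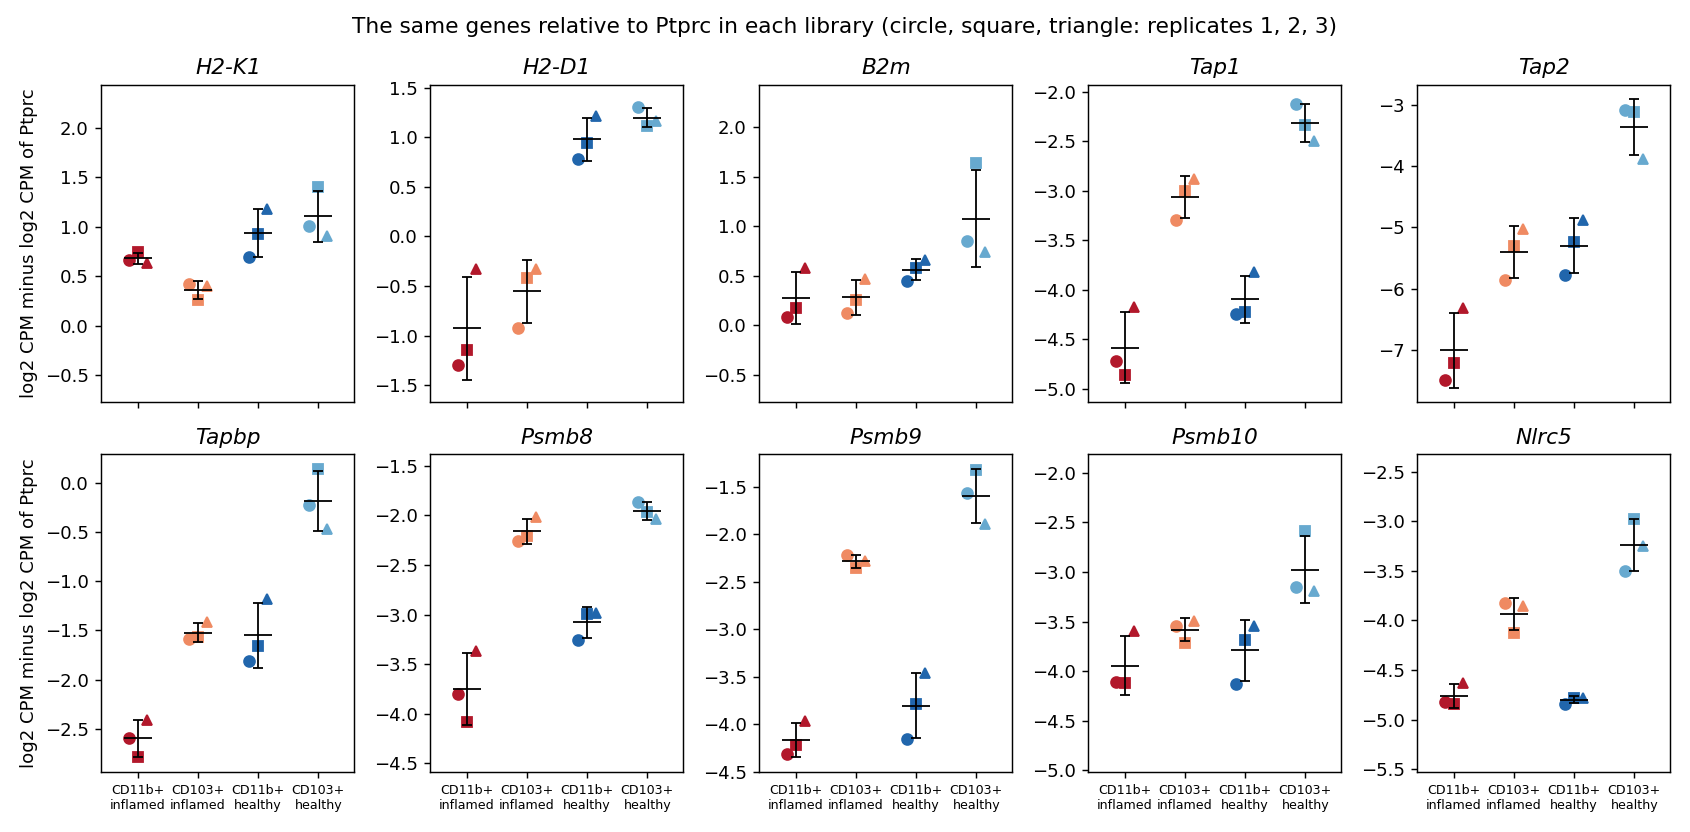
The same 10 genes as log2 CPM minus log2 CPM of Ptprc in the same library (vertical axes, a separate range for each gene) by group, where points are libraries and black bars are the mean ± SD of 3. H2-D1 lay between -1.30 and -0.33 in the 6 inflamed libraries and between 0.78 and 1.30 in the 6 healthy ones.

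Between the subsets of inflamed kidneys, CD11b+ cells were lower than CD103+ cells in 5 of the 10 genes and higher in H2-K1, in a comparison in which 9.66% of all genes were higher and 8.21% lower in CD11b+ cells. Psmb9 was lower by 1.54 ± 0.18 on the log2 scale (SE, limma adjusted p = 2.98e-05), Tap2 by 1.27 ± 0.28 (limma adjusted p = 0.00567), Psmb8 by 1.25 ± 0.26 (limma adjusted p = 0.00394), Tap1 by 1.18 ± 0.26 (limma adjusted p = 0.00472) and Tapbp by 0.73 ± 0.17 (limma adjusted p = 0.00792). CD11b+ libraries lay below CD103+ libraries without overlap for 6 of the 10 genes, these 5 and Nlrc5. They lay above without overlap for 2, H2-K1 and B2m. Of all genes tested, 21.7% lay above and 21.5% below without overlap. H2-K1 was higher in CD11b+ cells by 0.66 ± 0.19 (limma adjusted p = 0.0299), a call that leaving out any of 5 of the 6 inflamed libraries ended (0.60 to 0.70; CD11b+ replicate 3 was the exception). B2m (0.34 ± 0.17), H2-D1 (-0.03 ± 0.31), Psmb10 (-0.02 ± 0.19) and Nlrc5 (-0.49 ± 0.24) did not pass (limma adjusted p = 0.214, 0.966, 0.963 and 0.197). With only the groups compared, Nlrc5 and B2m passed (limma adjusted p = 0.00376 and 0.0433). Nlrc5 also passed with array weights (-0.48, limma adjusted p = 0.0128) and without CD103+ healthy replicate 3 (limma adjusted p = 0.0248). Medians were -0.61 for the 10 and 0.01 for all genes. Here 0 of the 15 tubule markers passed by limma, and 0 had an unadjusted p under 0.05 (3815 to 6338 CPM in CD11b+ inflamed, against 3757 to 4427 CPM in CD103+ inflamed libraries), 2 of 20 pan-leukocyte genes were higher and 1 lower in CD11b+ cells, and 7 of 8 macrophage markers were higher (1148 to 1402 CPM in CD11b+ inflamed, against 30.0 to 31.7 CPM in CD103+ inflamed libraries). All 4 neutrophil markers (115 to 220 CPM, against 0.520 to 1.16 CPM, with Cxcr2 at 0 in CD103+ inflamed libraries) and 3 of 4 tested B cell markers (44.4 to 60.8 CPM, against 22.4 to 23.6 CPM) were higher as well, and their part in the differences was not tested.

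Relative to Ptprc the same 5 genes were lower in CD11b+ than in CD103+ inflamed cells, by 1.88 (Psmb9), 1.61 (Tap2), 1.59 (Psmb8), 1.52 (Tap1) and 1.07 (Tapbp) on the log2 scale, and 0 were higher, where 3.58% of all genes were higher and 5.99% lower. Psmb9 relative to Ptprc was -4.32, -4.22 and -3.96 in CD11b+ inflamed libraries, against -2.21, -2.35 and -2.28 in CD103+ inflamed libraries. Nlrc5 relative to Ptprc did not pass (-0.83 ± 0.26, limma adjusted p = 0.0568), but did with only the groups compared (limma adjusted p = 0.000179). Tap2 and Tapbp lost their calls on this scale when single inflamed libraries were left out (-1.37 to -1.56 for Tap2 without CD11b+ replicate 1 or 2 or CD103+ replicate 2 or 3, and -0.98 to -1.08 for Tapbp without CD11b+ replicate 1 or 2 or CD103+ replicate 3).

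Pairs within libraries did not give the same order of the subsets for every immunoproteasome subunit. In inflamed kidneys Psmb9 relative to Psmb6 was lower in CD11b+ than in CD103+ cells by 1.396 ± 0.24 (SE, limma adjusted p = 0.00106) and Psmb8 relative to Psmb5 by 0.89 ± 0.30 (limma adjusted p = 0.0363), while Psmb10 relative to Psmb7 was higher by 0.70 ± 0.24 (limma adjusted p = 0.0239). The Psmb8 call was lost on leaving out any inflamed library (-0.82 to -0.95), and that of Psmb10 without CD11b+ replicate 1 or 3 or CD103+ replicate 1 or 2 (0.63 to 0.70). H2-D1 relative to H2-K1, the pair added after the values were seen, was lower in CD11b+ inflamed cells by 0.69 ± 0.25 (limma adjusted p = 0.0441). Its libraries overlapped, at -1.97, -1.89 and -0.97 in CD11b+ inflamed and -1.34, -0.68 and -0.73 in CD103+ inflamed cells. This pair was not fitted with libraries left out.

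In healthy kidneys H2-K1, H2-D1, B2m and Psmb10 were higher in CD11b+ than in CD103+ cells, by 1.51 ± 0.19, 1.46 ± 0.31, 1.16 ± 0.17 and 0.86 ± 0.19 on the log2 scale (SE, limma adjusted p = 4.32e-05, 0.0017, 0.000106 and 0.00215), and Psmb9 was lower by 0.53 ± 0.18 (limma adjusted p = 0.0255). Of all genes tested 25.4% were higher and 24.5% lower, and the medians were 0.43 for the 10 and 0.02 for all genes. The groups of H2-K1, H2-D1, B2m and Psmb10 did not overlap, with CD11b+ cells above, and those of Psmb9 did. Of all genes tested 26.6% were above and 26.8% below without overlap. Its call was lost without CD103+ healthy replicate 1 (-0.50) or 3 (-0.33) or CD11b+ healthy replicate 1 (-0.46). Tap1 passed as lower without CD103+ healthy replicate 2 (-0.48). Within libraries Psmb10 relative to Psmb7 was higher in CD11b+ healthy cells by 1.46 ± 0.24 (limma adjusted p = 0.000142) and Psmb8 relative to Psmb5 by 0.91 ± 0.30 (limma adjusted p = 0.0126; not passing without CD103+ healthy replicate 2, at 0.45, or CD11b+ healthy replicate 2, at 0.81). Without CD103+ healthy replicate 3, Tapbp, Psmb8 and Nlrc5 also passed as higher (0.52, 0.87 and 0.47). In this comparison 13 of the 15 tubule markers were lower and 19 of the 20 pan-leukocyte genes higher in CD11b+ cells. Markers of other leukocytes were higher as well. These were 7 of 7 of T cells (462 to 643 CPM in CD11b+ healthy, against 103 to 175 CPM in CD103+ healthy libraries), 6 of 6 of NK cells (286 to 310 CPM, against 38.8 to 60.4 CPM) and 4 of 4 tested of B cells (127 to 212 CPM, against 20.8 to 21.8 CPM). All 4 neutrophil markers (48.9 to 115 CPM, against 0.334 to 2.23 CPM) and 6 of 8 macrophage markers (402 to 483 CPM, against 22.7 to 39.3 CPM) were also higher. In CD103+ healthy libraries the B cell marker Pax5 was at 0. The part of these genes in the differences was not tested.

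Relative to Ptprc, 0 of the 10 genes were higher and 7 were lower in CD11b+ than in CD103+ healthy cells, where 2.97% of all genes were higher and 76.3% lower; medians were -1.24 for the 10 and -1.66 for all genes. The largest difference of the 10 was that of Psmb9 (-2.21 ± 0.27, limma adjusted p = 1.92e-05), with -4.15, -3.79 and -3.46 in CD11b+ healthy libraries, against -1.56, -1.33 and -1.89 in CD103+ healthy libraries. The class I molecule did not pass on this scale, with differences of -0.17 ± 0.21 for H2-K1, -0.22 ± 0.27 for H2-D1 and -0.51 ± 0.25 for B2m (limma adjusted p = 0.466, 0.457 and 0.0722). Psmb9, Psmb8, Tap1, Tap2, Tapbp, Psmb10 and Nlrc5 were the 7 that were lower. This count is near the share of all genes. The Psmb10 call did not pass without CD11b+ healthy replicate 1 (-0.64, limma adjusted p = 0.0817) or with only the healthy groups in the fit (limma adjusted p = 0.123), and B2m passed without CD103+ healthy replicate 3 (-0.68, limma adjusted p = 0.0168).

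**Figure D4:**
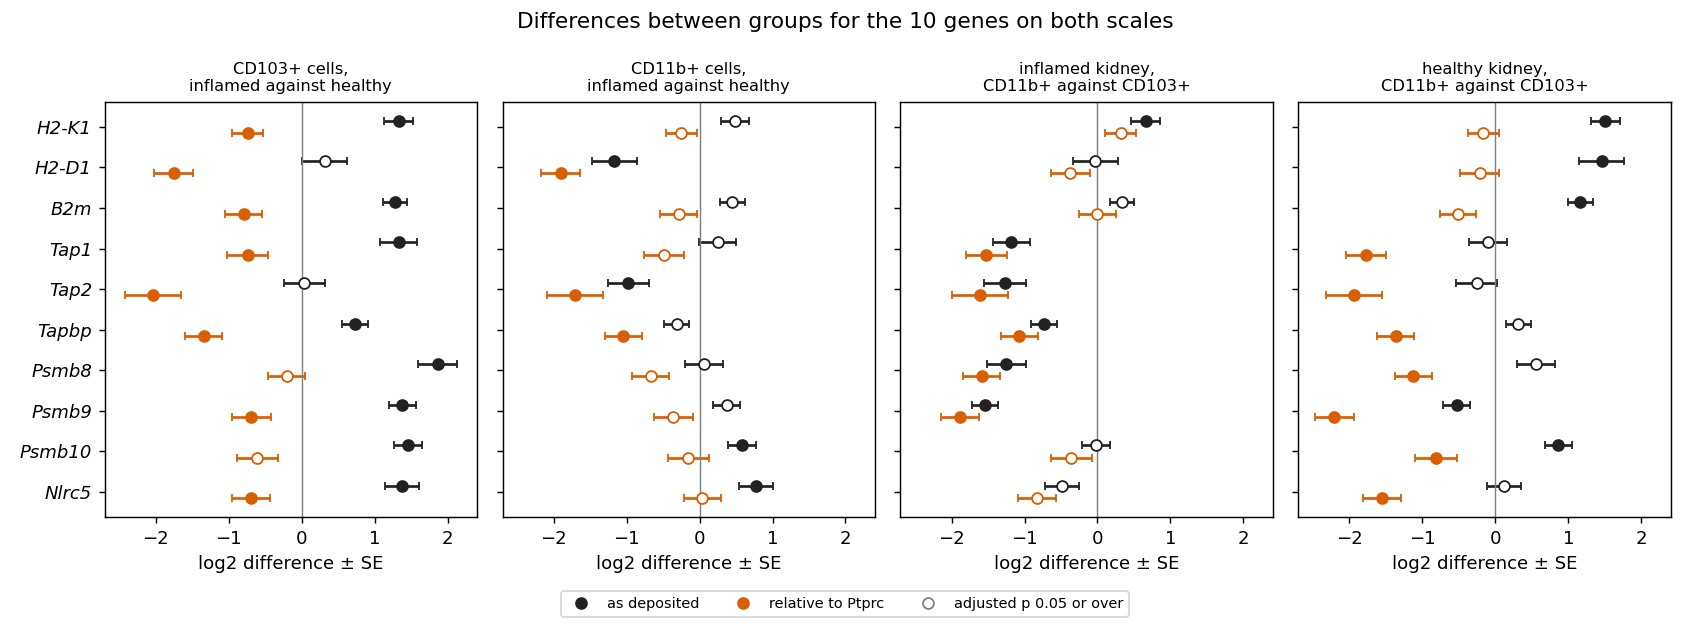
Log2 differences ± SE (horizontal axes) of the 10 genes in 4 comparisons, as deposited (black) and relative to Ptprc (orange); open points have an adjusted p of 0.05 or over. Black and orange points lie close together between the inflamed subsets and far apart where CD103+ healthy cells are compared, as for Psmb8 in CD103+ cells in nephritis (1.86 as deposited and -0.21 relative to Ptprc).

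The response to nephritis of CD11b+ cells minus that of CD103+ cells was tested directly. As deposited, 8 of the 10 genes had the lower response in CD11b+ cells and 0 the higher, where 17.7% of all genes had the lower and 17.7% the higher. Differences among the 8 ran from -0.83 for B2m to -1.80 for Psmb8; Tap2 (-1.01 ± 0.40, limma adjusted p = 0.0639) and Nlrc5 (-0.60 ± 0.33, limma adjusted p = 0.171) did not pass. The count was 5 without CD11b+ healthy replicate 2. In this difference 17 of the 20 pan-leukocyte genes, 7 of 7 T cell, 6 of 6 NK cell and 4 of 4 tested B cell markers were lower too and 12 of the 15 tubule markers higher, and their part in it was not tested. Relative to Ptprc 0 of the 10 passed in either direction by limma and 0 had an unadjusted p under 0.05, where 37.2% of all genes had the higher and 0.48% the lower response in CD11b+ cells. Within libraries the response of Psmb8 relative to Psmb5 was lower in CD11b+ cells by 1.80 ± 0.42 (limma adjusted p = 0.0016) and that of Psmb9 relative to Psmb6 by 1.19 ± 0.34 (limma adjusted p = 0.0183), while Tap1 to Tap2 and H2-K1 to B2m did not pass (-0.07 ± 0.56 and -0.02 ± 0.27, limma adjusted p = 0.94 and 0.965).

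The rest of the proteasome was counted from lists of its parts. In nephritis 34.6% of all genes tested rose and 27.8% fell in CD103+ cells, and 20.1% rose and 15.8% fell in CD11b+ cells, and the counts of every list stand against these shares. Of the 11 other subunits of the 20S core, 9 rose and 0 fell in CD103+ cells in nephritis, as deposited, while 6 rose and 1 fell in CD11b+ cells. Among these alpha and beta subunits, Psma5 rose by 0.99 (limma adjusted p = 8.12e-06), Psma3 by 0.86, Psma1 by 0.84 and Psma6 by 0.83 in CD103+ cells, and Psma5 by 0.51, Psma3 by 0.44 and Psma1 by 0.75 in CD11b+ cells, where Psma6 was at 0.33 and did not pass. Of the constitutive catalytic subunits, Psmb6 rose (0.41 in CD103+ and 0.58 in CD11b+ cells), Psmb5 fell (-0.90 in each) and Psmb7 did not pass (0.06 and -0.07). Of the 18 subunits of the 19S regulatory particle, 4 rose and 5 fell in CD103+ cells, and 9 rose and 4 fell in CD11b+ cells. In CD103+ cells these counts are not above the shares of all genes. Psmd14, the deubiquitinase of the lid, rose by 0.89 and 0.52 in the same order, Psmd13 by 0.69 and 1.20 and Psmd2 by 0.32 and 0.57, while the ubiquitin receptor Adrm1 fell by 0.86 and 0.84. Between the inflamed subsets 0 of the 11 core subunits were higher and 5 lower in CD11b+ cells, among them Psma3 (-0.70), Psma5 (-0.62) and Psma6 (-0.42). Of the 18 subunits of the 19S particle, 0 were higher and 2 lower. In that comparison 9.66% of all genes were higher and 8.21% lower, and the count of 19S subunits that were lower is near that share.

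Psme1 and Psme2 encode the PA28 activator, which is known to be induced with the immunoproteasome, and Pomp encodes the chaperone of proteasome assembly. In CD103+ cells in nephritis Psme2 rose by 1.47 (limma adjusted p = 3.86e-06), Psme1 by 1.26, Pomp by 0.93 and Psme3, the nuclear relative of PA28, by 0.46, and the assembly chaperone Psmg1 fell by 1.01. Psme4, Psmf1 and Psmg2 did not pass there (0.03, 0.30 and 0.34), so that 4 of the 8 genes of this list rose and 1 fell. In CD11b+ cells 2 of the 8 rose, Psme2 (0.67) and the proteasome inhibitor Psmf1 (0.52), and Psmg1 fell (-0.87). Between the inflamed subsets 3 of the 8 were lower in CD11b+ cells, Psme1 (-1.18, limma adjusted p = 0.000262), Pomp (-1.12) and Psme2 (-0.80), and 0 were higher. There 8.21% of all genes were lower and 9.66% higher. Relative to Ptprc it was also 3 and 0, where 5.99% of all genes were lower and 3.58% higher.

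Of 8 genes of peptide trimming and loading, 6 rose and 1 fell in CD103+ cells in nephritis (34.6% and 27.8% of all genes), and 5 rose and 1 fell in CD11b+ cells (20.1% and 15.8%). Erap1, which trims peptides in the endoplasmic reticulum, rose by 1.81 in CD103+ (limma adjusted p = 2.01e-07) and 1.33 in CD11b+ cells. The cytosolic peptidase Tpp2 rose by 1.47 and 0.63. Lnpep, the endosomal insulin-regulated aminopeptidase, rose by 1.76 in CD103+ cells and was at 0.29 in CD11b+ cells. Tapbpl, a tapasin-like peptide editor, rose by 0.95 in CD103+ cells and was at -0.16 in CD11b+ cells. The chaperones Calr (0.44 and 0.64) and Canx (0.52 and 0.60) rose in both. The cytosolic aminopeptidase Npepps passed in CD11b+ cells and did not pass in CD103+ cells (0.31 in CD103+ and 0.46 in CD11b+ cells, limma adjusted p = 0.104 and 0.0385; limma adjusted p of the difference 0.643). Pdia3, which encodes ERp57, the partner of tapasin, fell in both, by 0.57 in CD103+ and by 1.98 in CD11b+ cells (limma adjusted p = 3.53e-05). The difference between these responses passed (-1.41, limma adjusted p = 0.00447). Between the inflamed subsets Pdia3 (-1.73) and Tapbpl (-0.90) were lower in CD11b+ cells and 0 of the 8 were higher. There 8.21% of all genes were lower and 9.66% higher.

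Of 15 class Ib and class I-like genes, 13 were tested, of which 9 rose and 1 fell in CD103+ cells (34.6% and 27.8% of all genes). In CD11b+ cells 3 of the 13 rose and 1 fell, where the rise is near the 20.1% of all genes. H2-M3, which presents formylated peptides, rose by 1.77 in CD103+ and 0.83 in CD11b+ cells, H2-T24 by 1.39 and 0.78, and Fcgrt, the neonatal Fc receptor, by 0.72 and 0.52. H2-T10 rose by 1.36 in CD103+ cells and was at 0.38 in CD11b+ cells. Of 12 genes of interferon-gamma signalling and class I regulation, 11 were tested, of which 9 rose and 0 fell in CD103+ cells and 4 rose and 1 fell in CD11b+ cells. Jak2, a kinase of the interferon-gamma receptor, rose by 2.08 in CD103+ and 0.91 in CD11b+ cells and the transcription factor Irf1 by 1.63 and 1.57, while Irf2 rose by 0.89 in CD103+ cells and was at 0.06 in CD11b+ cells. Irf1 was higher in CD11b+ than in CD103+ cells in inflamed (1.21) and in healthy kidneys (1.27).

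In healthy kidneys, CD11b+ against CD103+ cells, 25.4% of all genes were higher and 24.5% lower. There 0 of the 11 other core subunits were higher and 2 lower, 0 and 11 of the 18 of the 19S particle, 0 and 1 of the 8 activators and assembly factors, 2 and 0 of the 8 of trimming and loading (Lnpep at 1.58 and Tpp2 at 0.79), 7 and 1 of the 13 class Ib and 7 and 0 of the 11 interferon-gamma genes. Relative to Ptprc, in CD103+ cells in nephritis 0.959% of all genes rose and 81% fell. On that scale 0 genes of any of these lists rose, and 11 of the 11 other core subunits, 18 of the 18 of the 19S particle, 7 of the 8 activators and assembly factors, 5 of the 8 of trimming and loading, 10 of the 13 class Ib and 9 of the 11 interferon-gamma genes fell. The shares of trimming and loading, class Ib and interferon-gamma genes that fell are below or near that of all genes. The plot of the lists shows each gene as deposited.

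**Figure D5:**
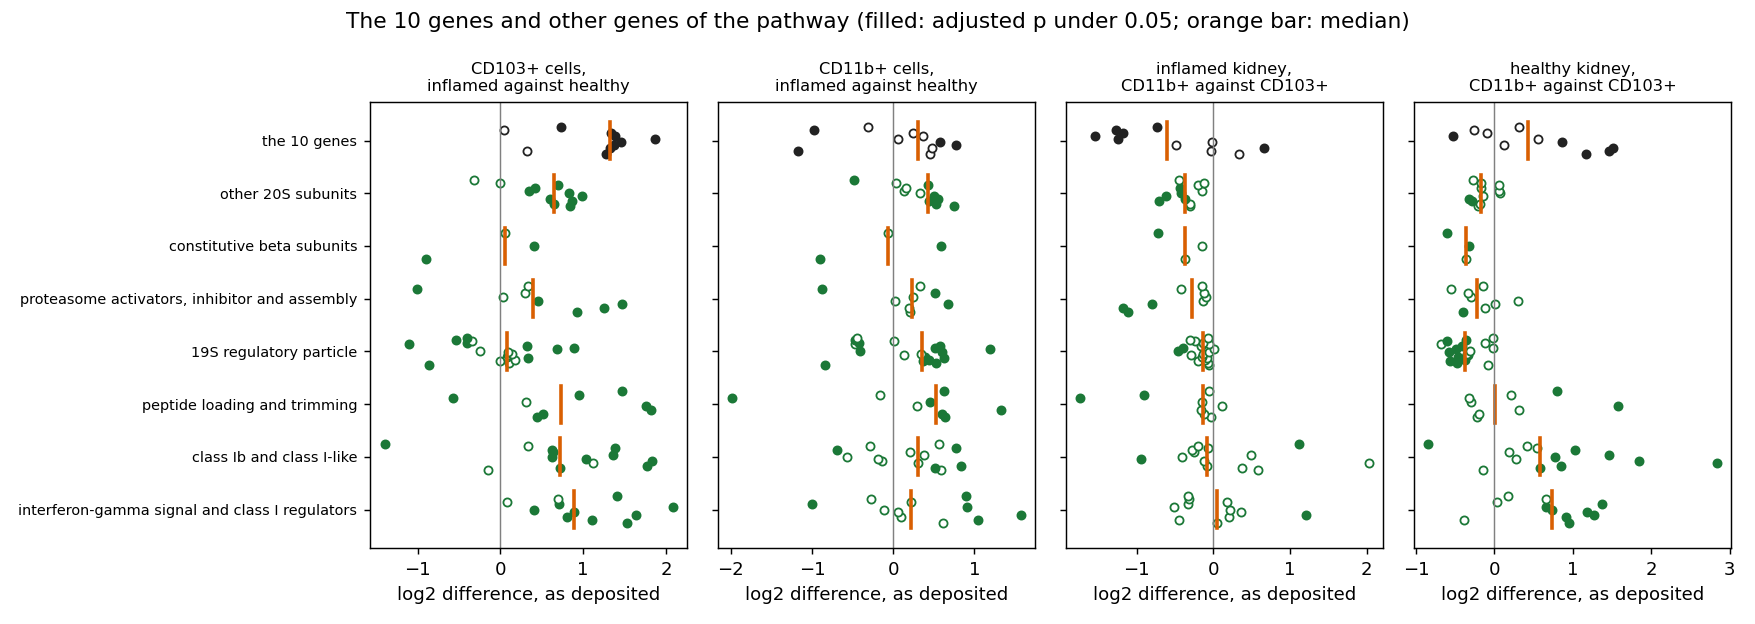
Log2 differences as deposited (horizontal axes, 1 panel per comparison) of the 10 genes (black) and of 7 lists of other genes of the pathway (green), 1 point per gene tested; filled points have an adjusted p under 0.05 and orange bars are medians. In CD103+ cells in nephritis the median of the 10 was 1.33, and the medians of the lists ran from 0.06 to 0.89.

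The genes most like the 10 were found by the spread, over the 12 libraries, of a gene's log2 value minus the mean log2 value of the 10. That mean was 7.56 ± 0.17 in CD11b+ inflamed, 8.11 ± 0.08 in CD103+ inflamed, 7.50 ± 0.07 in CD11b+ healthy and 7.00 ± 0.51 in CD103+ healthy cells (SD, n = 3 each). Of 8114 genes with a mean of at least 10 CPM, those with the smallest SD of the difference included Arpc2 (0.131), Shkbp1 (0.151), Capzb (0.168), Fbxw7 (0.172), Clec12a (0.172), Npm1 (0.174) and Bloc1s2 (0.174). Arpc2 and Capzb are actin regulators and Clec12a is a lectin of dendritic cells, and none of the genes named here is in the 7 lists. Among the 10 themselves the closest pairs were B2m and Psmb10 (SD of the difference 0.233), H2-K1 and B2m (0.259), Tap1 and Psmb8 (0.282) and Psmb9 and Tap1 (0.289). The gene nearest to Nlrc5 was Psmb10 (0.364), and that nearest to Tapbp was Tap1 (0.414). Tap2 (nearest Tapbp, 0.546) and H2-D1 (nearest Tapbp, 0.650) had no close neighbour.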

How the data were processed

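The authors deposited 1 table of log2 values for the 12 libraries, of 26281 lines. The submitters' processing notes name the tools STAR 2.0.4b, Subread, featureCounts 1.4.5 and edgeR but give them no role, and name no genome build that could be used here. Per the labels' protocols, kidneys were digested at 37 °C with collagenase and DNase and CD45+ cells were enriched on beads. A SMARTer Ultra Low kit made the cDNA, with 12 cycles of amplification, and single reads of 50 bases were sequenced. Undoing the deposited log2 CPM, with its offset of 0.5 reads, gave whole reads (within 0.05) for 100% of the genes in each library, and CPM values here come from those reads. After 160 repeated lines were dropped 26121 genes remained. GENCODE M21 (GRCm38) holds 26004 of their IDs and supplied coordinates, exon lengths and 27 symbols that had turned into dates. Promoter sequence came from RefSeq.

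A gene was tested when its log2 value was 0 or more (1 CPM) in 3 or more libraries, which 14180 genes met. The test was limma (3.58.1, R 4.3.3) with a mean for each group, all 12 libraries in 1 fit, and moderated variances with a trend and robust to outliers. P-values are two-sided and adjusted by Benjamini-Hochberg over all genes tested, at a threshold of 0.05, for 5 comparisons. Relative to Ptprc, and in pairs, the second gene's log2 value was subtracted from every gene of the library and the whole table fitted again (14179 genes for Ptprc). The noise of the subtracted gene then enters every gene of the fit. Genes are therefore not independent in the moderated variances, and the p-values of pairs can be too small. By the series' design text the 3 libraries of a group come from 3 mice. The fit was tested on simulated data. The 10 genes and the lists were chosen with earlier results of these data known. All genes were named from lists of up to 8 genes, and from longer lists up to 4 with the smallest adjusted p; some genes that this rule or the search for like genes gives are not reported here. Alternatives were other pseudocounts, filters, scalings, weights, sets of samples and replicate blocks, each library left out in turn, and limma-voom on the recovered reads, which was added after the data were seen. Tables used pandas 2.3.3 and numpy 2.4.6 under Python 3.11.15, and matplotlib 3.10.9 drew the figures.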

Additional observations from a re-analysis of the deposited data

Results flagged for a closer look

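For 8 of the 10 genes the response to nephritis differed between the kinds of cell by the direct limma test of the difference on the deposited values. The response of CD11b+ cells minus that of CD103+ cells, on the log2 scale, was -1.80 ± 0.37 for Psmb8 (SE, limma adjusted p = 0.00295), -1.49 ± 0.44 for H2-D1 (0.0184), -1.08 ± 0.36 for Tap1 (0.0336) and -1.04 ± 0.24 for Tapbp (0.00556). It was -1.01 ± 0.26 for Psmb9 (limma adjusted p = 0.00862), -0.88 ± 0.27 for Psmb10 (0.0217), -0.85 ± 0.28 for H2-K1 (0.0292) and -0.83 ± 0.24 for B2m (0.0168). Of all genes tested, 17.7% had the lower response in CD11b+ cells. Leaving out 1 library of the 12 in turn ended the call of H2-K1 in 6 fits (-0.76 to -0.87), that of Tap1 in 6 (-0.98 to -1.10) and that of Psmb10 in 4 (-0.79 to -0.83). The other 5 calls passed in all 12.

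Relative to Ptprc none of these 8 passed by limma: the values were -0.47 for Psmb8, -0.15 for H2-D1, 0.26 for Tap1, 0.29 for Tapbp, 0.32 for Psmb9, 0.45 for Psmb10, 0.49 for H2-K1 and 0.51 for B2m, with adjusted p of 0.191 to 0.752. With the mean of 20 pan-leukocyte genes in place of Ptprc, H2-K1 passed in the direction opposite to its deposited call (0.52, limma adjusted p = 0.0386), and the others of the 8 did not pass. Ptprc itself differed in the same direction as the 8 (-1.34, limma adjusted p = 0.0155). Psmb8 and Psmb9 are the genes whose difference also passed relative to their constitutive partner in the same library. CD103+ healthy replicate 2 had the lowest values of its group, 1.75 for Psmb8 minus Psmb5 (3.18 and 3.12 in replicates 1 and 3) and -1.64 for Psmb9 minus Psmb6 (-0.78 and -0.36). Without that library the differences were -1.33 and -0.83 (limma adjusted p = 0.0145 and 0.00903). The part of RNA of other cells in these pairs was not tested.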

How the results depend on the processing

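Of the comparisons as deposited, the count of 8 genes higher and 0 lower in CD103+ cells in nephritis was the same in every alternative run. In CD11b+ cells in nephritis the 2 higher became 4 with array weights, 5 with only the groups compared and 0 with quantile normalization. The 1 lower between healthy subsets became 0 with only the groups compared. The 1 higher between inflamed subsets (H2-K1) became 2 with only the groups compared, 0 with median-centred libraries and 0 with the replicate block. Relative to Ptprc, the 8 lower in CD103+ cells became 3 with only the groups compared and 5 with the mean of 20 pan-leukocyte genes. The 0 higher between inflamed subsets became 1 in each of these settings, and the 0 higher in the difference of responses became 2 with the pan-leukocyte mean (H2-K1, which is lower as deposited, and Nlrc5). The cause was not tested.

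With single libraries left out in turn, as deposited, the counts ran from 0 to 5 higher and 1 to 2 lower in CD11b+ cells, 4 to 7 higher and 0 to 2 lower between healthy subsets, 0 to 1 higher between inflamed subsets and 5 to 9 lower in the difference of responses. Relative to Ptprc they ran from 5 to 9 lower in CD103+ cells and 3 to 6 lower between inflamed subsets. Of the 6 planned pairs, 1 to 2 were higher and 0 to 1 lower between healthy subsets, and 0 to 1 higher and 1 to 2 lower between inflamed subsets.

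Between the scales, calls reversed. In CD103+ cells in nephritis H2-K1 (1.33 and -0.74), B2m, Tap1, Tapbp, Psmb9 and Nlrc5 passed as higher as deposited and as lower relative to Ptprc. Between healthy subsets Psmb10 did so too (0.86 and -0.81). Within a scale or pair, all values that changed sign from the main fit belonged to differences that had not passed. As deposited, Tap2 in CD103+ cells was -0.16 with array weights and -0.068 with quantile normalization, and Psmb8 in CD11b+ cells was -0.056 and -0.21. With a pseudocount of 4 CPM, Nlrc5 relative to Ptprc in CD11b+ cells was -0.023 and Tap1 to Tap2 between inflamed subsets -0.093. With the pan-leukocyte mean, Psmb8 was 0.10 in CD103+ cells, H2-K1, B2m and Psmb10 were 0.084, 0.052 and 0.18 in CD11b+ cells, H2-K1 and H2-D1 were 0.11 and 0.058 between healthy subsets, and B2m was 0.30 between inflamed subsets. With libraries left out, values as deposited ran from -0.10 to 0.66 for H2-D1 and -0.22 to 0.26 for Tap2 in CD103+ cells, -0.069 to 0.20 for Psmb8 in CD11b+ cells, -0.48 to 0.16 for Tap1 and -0.13 to 0.47 for Nlrc5 between healthy subsets, and -0.27 to 0.13 for H2-D1 and -0.13 to 0.036 for Psmb10 between inflamed subsets. Relative to Ptprc they ran from -0.028 to 0.078 for Nlrc5 in CD11b+ cells, -0.15 to 0.092 for B2m between inflamed subsets, and -0.45 to 0.035 for H2-D1 and -0.022 to 0.59 for Tap2 in the difference of responses. Pairs ran from -0.083 to 0.12 (CD103+ cells), -0.057 to 0.20 (CD11b+ cells) and -0.11 to 0.16 (difference of responses) for H2-K1 to B2m. They ran from -0.0043 to 0.33 (healthy subsets), -0.080 to 0.23 (inflamed subsets) and -0.24 to 0.093 (difference of responses) for Tap1 to Tap2. Between healthy subsets they ran from -0.56 to 0.079 for Psmb9 to Psmb6 and -0.024 to 0.46 for H2-D1 to B2m.

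Whether replicate numbers mark the mouse is not stated, and the correlations of deviations between libraries do not settle it. Same-numbered libraries had 0.0660, 0.0520 and 0.151 in inflamed and -0.0139, 0.000328 and -0.154 in healthy kidneys. Libraries of other numbers had -0.136 to 0.0742 in inflamed and -0.1 to 0.115 in healthy kidneys. Not every library correlated best with its own number. With deviations from means of 3 libraries, such values cannot exclude a pairing, and the main fit pairs no libraries. With the replicate block the lower count in the difference of responses was 6 against 8, without H2-K1 (limma adjusted p = 0.0595) and B2m (0.0502). The edgeR fit on recovered reads was not run, and limma-voom took its place, with 3 genes higher in CD11b+ cells. Precision is limited by 3 libraries a group, and Psmb5, at 3.75 to 13.7 CPM, is the least deeply read gene in the pairs.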
